A study of Rattus norvegicus with 6 samples.

Results

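Elastic fibre and fibronectin matrix genes are described here as 10 genes: Eln, Fbn1, Fbn2, Fbln1, Fbln2, Fbln5, Efemp2, Mfap2, Mfap5 and Fn1. They were chosen by gene symbol, with earlier results of these data known, out of 14506 genes with a probe set that names a single gene. All 10 were measured, each by 1 probe set, the array's group of probes for a gene. The samples were neurospheres, floating cell clusters grown for 10 days in neural crest medium from carotid bodies of adult rats. The carotid body is a small organ beside the carotid artery that senses blood oxygen. The 3 arrays labelled differentiated came from spheres kept without mitogens at 3% oxygen. The 3 arrays labelled undifferentiated came from spheres kept in normal oxygen with ET-1, EGF, IGF-1 and FGF as mitogens, so mitogens and oxygen changed together and cannot be told apart. The series set out to compare spheres rich in neuronal cells, the differentiated ones, with spheres rich in undifferentiated cells. Each sphere is a mixture of cells. Nothing in the labels ties the arrays to separate animals or cultures, so the p-values cover the spread between these arrays alone, which may be technical.

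Elastic fibres give arteries and other tissues their recoil. Their core is cross-linked elastin, laid down on microfibrils that are built of fibrillins with small microfibril-associated glycoproteins, and fibulins join the parts and bring in the lysyl oxidases that cross-link elastin. Fibronectin is a separate fibrillar protein that cells pull into a network through their integrins. That network is known to guide the deposition of fibrillin, latent TGF-beta binding proteins and collagens.

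Both fibrillin genes, the microfibril glycoprotein gene Mfap5, the fibulin genes Fbln2 and Efemp2, and fibronectin were higher in the arrays labelled differentiated. Mfap2, the other microfibril glycoprotein gene, was lower, and elastin itself and the fibulin genes Fbln5 and Fbln1 did not pass the test. Of the 10 genes, 6 rose, 1 fell and 3 did not pass at a limma adjusted p under 0.05 over all 14506 genes. Of all genes, 14.7% rose and 14.9% fell by the same test, 29.5% in all. These shares, here and below, also count dim genes. With dim genes left out, 2114 of 10160 genes rose and 2172 fell, which are larger shares. Under that filter 6 of the 10 genes described here still rose and 1 fell. The median log2 change of the 10 genes was 0.86, against 0.06 for all genes. In the 6 genes that rose, all 3 arrays labelled differentiated lay above all 3 labelled undifferentiated, a pattern that 22.5% of all genes showed (19.8% showed the reverse, 42.3% either). In the other 4 genes the groups overlapped. The rise was at least 1 on the log2 scale in 4 genes; of all genes, 3.2% rose and 4.8% fell by that much with a call. Without limma's moderation of the variances, 4 of the 6 rises were called.

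**Figure D1:**
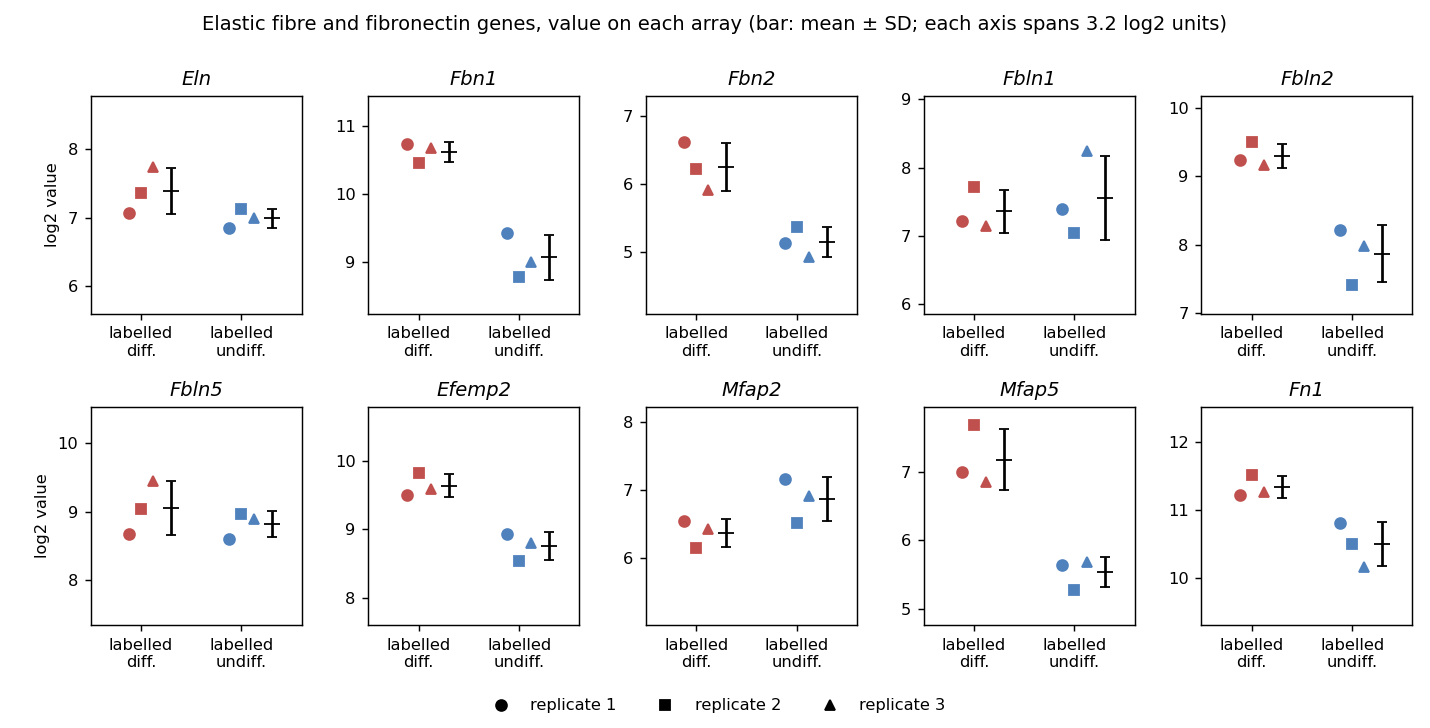
Deposited log2 value (vertical axis, log2 units) of each of the 10 genes on each array, labelled differentiated on the left (red) and labelled undifferentiated on the right (blue), with marker shapes for the replicate number and a black bar for the mean ± SD (n = 3 each). Fbn1, Fbn2, Fbln2, Efemp2, Mfap5 and Fn1 show red points above all blue points, and Eln, Fbln1, Fbln5 and Mfap2 show groups that overlap.

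The labels were checked on Th, the enzyme that limits the making of catecholamines and a defining gene of the carotid body's glomus cells. It averaged 10.90 ± 0.37 in the arrays labelled differentiated and 13.76 ± 0.16 in those labelled undifferentiated (SD, n = 3 each; limma adjusted p = 5.09e-07). Lower Th in spheres labelled as rich in neuronal cells goes against the label, so every direction here is that of the arrays as labelled. Whether the labels of the groups were exchanged cannot be settled from the files; an exchange would turn the sign of every change given here. The neuronal tubulin Tubb3 differed by -0.00165 (limma adjusted p = 0.995) and the glial filament gene Gfap by 0.19 (adjusted p = 0.373). Array medians lay between 5.05 and 5.13. No value of the 10 genes was below the lower quartile of its array, and 9 of the 10 lay above the array median on all 6 arrays. The exception was Fbn2, at 4.93 on undifferentiated replicate 3.

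Fibrillins form the backbone of the microfibril. Fbn1, the main fibrillin of adult tissue, read 10.72, 10.44 and 10.67 in the arrays labelled differentiated, against 9.42, 8.77 and 9.0 in those labelled undifferentiated. The lowest array labelled differentiated stood 1.02 above the highest labelled undifferentiated. Fbn1 rose by 1.55 ± 0.15 (SE), or 2.92-fold, at a limma adjusted p = 2.12e-05. Fbn2, the fibrillin best known from developing tissue, read 6.62, 6.22 and 5.92 in the arrays labelled differentiated, against 5.14, 5.37 and 4.93 in those labelled undifferentiated. The gap between the groups was 0.55. Fbn2 rose by 1.10 ± 0.18 (SE), or 2.15-fold, at a limma adjusted p = 0.00078, and its adjusted p was 0.0514 without moderation.

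The microfibril-associated glycoproteins, small proteins that sit on fibrillin, moved in opposite directions. Mfap5 had the largest change of the 10 genes. It read 7.01, 7.69 and 6.85 in the arrays labelled differentiated, against 5.64, 5.28 and 5.68 in those labelled undifferentiated, with a gap of 1.17 between the groups. It rose by 1.65 ± 0.20 (SE), or 3.14-fold, at a limma adjusted p = 9.64e-05, and 2.65% of all genes had a larger change in either direction. Mfap2 read 6.54, 6.15 and 6.43 in the arrays labelled differentiated, against 7.16, 6.52 and 6.91 in those labelled undifferentiated. Undifferentiated replicate 2 lay just below the highest array labelled differentiated, so the groups overlapped by 0.02. Mfap2 fell by 0.49 ± 0.17 (SE), or 1.40-fold, with a limma adjusted p = 0.0456.

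That call of Mfap2 was close to the threshold and was lost in 4 of the 6 fits that left out an array. The adjusted p was 0.136 without differentiated replicate 2, 0.0828 without differentiated replicate 3, 0.182 without undifferentiated replicate 1 and 0.124 without undifferentiated replicate 3. Its change stayed negative in all 15 alternatives, between -0.66 and -0.34.

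The RefSeq table of promoter windows (GRCr8 build) held 7 of the 10 genes, all but Eln, Fbln1 and Fn1. Windows of the 250 bases before the annotated start are shown for Fbn2 and Mfap5, a fibrillin and a microfibril glycoprotein that rose, since their annotated start is also the outer edge of the annotated gene; in the other 5 the gene extends further upstream. Capitals mark a match to GGAATG on either strand, the short TEAD motif; the Mfap5 window has none, so it is all in lower case.
Fbn2, minus strand, chr18:53901993-53902242: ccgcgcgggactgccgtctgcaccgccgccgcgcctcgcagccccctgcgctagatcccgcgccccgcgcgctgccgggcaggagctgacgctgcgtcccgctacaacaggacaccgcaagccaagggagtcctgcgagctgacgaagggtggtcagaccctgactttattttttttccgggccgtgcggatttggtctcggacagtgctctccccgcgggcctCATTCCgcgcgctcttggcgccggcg
Mfap5, plus strand, chr4:157399669-157399918: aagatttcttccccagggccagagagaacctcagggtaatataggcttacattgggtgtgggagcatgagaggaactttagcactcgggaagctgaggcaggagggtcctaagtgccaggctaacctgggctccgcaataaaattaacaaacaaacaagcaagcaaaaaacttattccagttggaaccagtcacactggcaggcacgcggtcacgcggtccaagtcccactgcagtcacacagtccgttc

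Beyond their shared direction the windows of Fbn2 and Mfap5 differed in base composition, with 70% G and C in Fbn2 and 51.6% in Mfap5, against a median of 51.2% over all 33469 windows. The other 5 windows had 63.2% to 71.2%. Of 5 motifs searched on both strands, the TATA box TATAAA was found in 0 of the 7 windows (12.9% of all windows), the AP-1 motif TGANTCA in 0 (6.34%) and the hypoxia response core ACGTG in 0 (16.6%). The GC box GGGCGG was found in 4 of the 7 (30.5% of all windows), those of Fbln2, Fbln5, Efemp2 and Mfap2. They include genes that rose, the gene that fell and Fbln5, which did not pass. This motif is all G and C, and these 4 windows hold more G and C than the median window. The share of all windows is therefore not a like background. The single GGAATG match, 26 bases before the start of Fbn2, is a motif that 12.1% of all windows hold.

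Among the fibulins, linker proteins of elastic fibres and basement membranes, Fbln2 and Efemp2 rose. Fbln2, which binds fibronectin and elastin, read 9.24, 9.50 and 9.16 in the arrays labelled differentiated, against 8.22, 7.41 and 7.98 in those labelled undifferentiated. The groups were apart by 0.95, although the arrays labelled undifferentiated were themselves spread over a wide range. Fbln2 rose by 1.44 ± 0.18 (SE), or 2.71-fold, at a limma adjusted p = 0.000114. Efemp2, a fibulin known to bring lysyl oxidase to elastin, read 9.50, 9.83 and 9.60 in the arrays labelled differentiated, against 8.93, 8.53 and 8.80 in those labelled undifferentiated. It rose by 0.89 ± 0.13 (SE), or 1.85-fold, at a limma adjusted p = 0.000269, with a gap of 0.57 between the groups.

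Fbln5, which binds elastin and integrins, did not pass. It read 8.67, 9.04 and 9.45 in the arrays labelled differentiated, against 8.60, 8.96 and 8.89 in those labelled undifferentiated. The difference was 0.23 ± 0.18 (SE; limma adjusted p = 0.375) with a 95% confidence interval of -0.15 to 0.62, which includes 0. Leaving out differentiated replicate 3 gave a difference of 0.0365 (adjusted p = 0.9), and leaving out differentiated replicate 1 gave 0.43 (adjusted p = 0.0676). Fbln1, a fibulin of basement membranes and elastic fibres, read 7.21, 7.72 and 7.14 in the arrays labelled differentiated, against 7.39, 7.04 and 8.24 in those labelled undifferentiated. Undifferentiated replicate 3 was the highest of the 6 arrays and replicate 2 the lowest, so this group spanned the other. The difference was -0.20 ± 0.26 (SE; limma adjusted p = 0.638), with a 95% confidence interval of -0.77 to 0.38. Without undifferentiated replicate 3 its sign turned, to 0.15 (adjusted p = 0.651).

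Eln, which encodes the elastin of the fibre's core, read 7.07, 7.36 and 7.74 in the arrays labelled differentiated, against 6.85, 7.12 and 7.0 in those labelled undifferentiated. The groups overlapped by 0.05: differentiated replicate 1 lay below undifferentiated replicate 2. The difference was 0.40 ± 0.16 (SE; limma adjusted p = 0.0835), with an unadjusted 95% confidence interval of 0.05 to 0.74. It passed without differentiated replicate 1, at 0.56 (adjusted p = 0.0173), and with array weights (adjusted p = 0.0408), and it was 0.22 without differentiated replicate 3. Eln and Fbln5 had the same highest and lowest arrays, replicates 3 and 1 in the arrays labelled differentiated and replicates 2 and 1 in those labelled undifferentiated.

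Fn1, which encodes fibronectin, read 11.22, 11.52 and 11.27 in the arrays labelled differentiated, against 10.81, 10.51 and 10.17 in those labelled undifferentiated. The groups were apart by 0.41, the narrowest gap of the 6 genes that rose. Fn1 rose by 0.84 ± 0.16 (SE), or 1.79-fold, at a limma adjusted p = 0.00183, and its adjusted p was 0.0689 without moderation. Across the 10 genes, undifferentiated replicate 2 was the lowest array of its group for 6, and differentiated replicate 2 the highest of its group for 5.

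**Figure D2:**
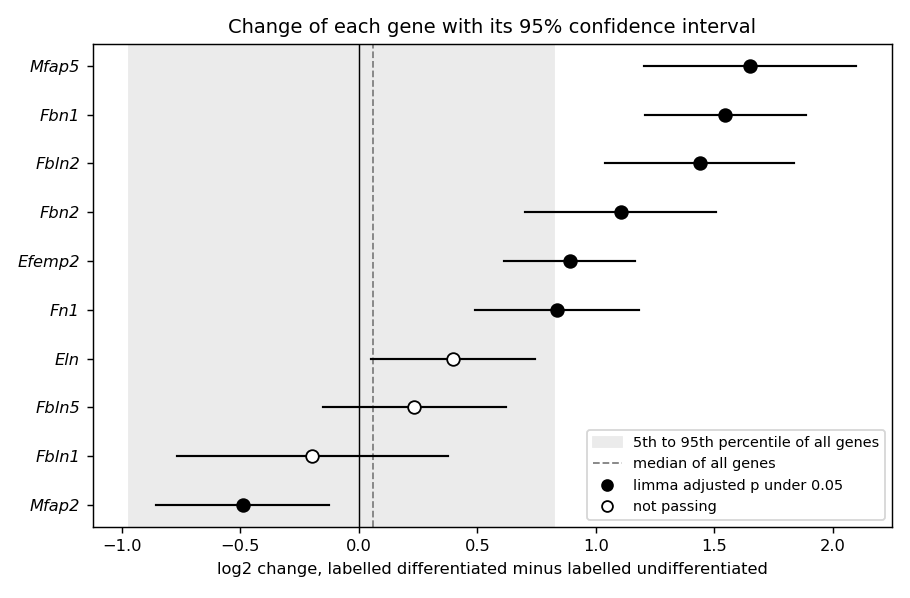
Log2 change of each gene (horizontal axis, log2 units, labelled differentiated minus labelled undifferentiated, n = 3 each) with its 95% confidence interval, filled where the limma adjusted p was under 0.05; the grey band runs from the 5th to the 95th percentile of all 14506 genes and the dashed line their median of 0.06. The 6 genes that rose lie between 0.84 and 1.65, Mfap2 lies at -0.49, and Eln, Fbln5 and Fbln1 lie within the band as open circles.

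Related genes were also set against each other on the same array, to ask whether they changed unequally. With 3 arrays a group, the exact permutation test used here, two-sided, cannot go below p = 0.10, so no pair could pass. Mfap2 minus Mfap5 was -0.46, -1.55 and -0.42 in the arrays labelled differentiated, against 1.52, 1.24 and 1.22 in those labelled undifferentiated. The groups did not overlap and their means differed by -2.14 (exact permutation p = 0.10, the smallest possible; 0.20 adjusted over the 4 pairs). Fbln1 minus Fbln2 was -2.03, -1.79 and -2.02 in the arrays labelled differentiated, against -0.83, -0.37 and 0.26 in those labelled undifferentiated. Here too the groups did not overlap, and their means differed by -1.63 (exact permutation p = 0.10, 0.20 adjusted). Both differences follow from the single-gene changes given above, with the separation of Mfap5 and Fbln2, so they are not separate support.

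The other pairs overlapped. Fbln5 minus Efemp2 averaged -0.59 ± 0.38 in the arrays labelled differentiated and 0.07 ± 0.38 in those labelled undifferentiated (SD, n = 3 each; exact permutation p = 0.2). Fbn1 minus Fbn2 averaged 4.36 ± 0.34 in the arrays labelled differentiated and 3.92 ± 0.46 in those labelled undifferentiated (SD, n = 3 each; exact permutation p = 0.4). The differences of these means, -0.65 and 0.44, were -0.47 and 0.18 without undifferentiated replicate 2, and the second was 0.25 without differentiated replicate 3.

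**Figure D3:**
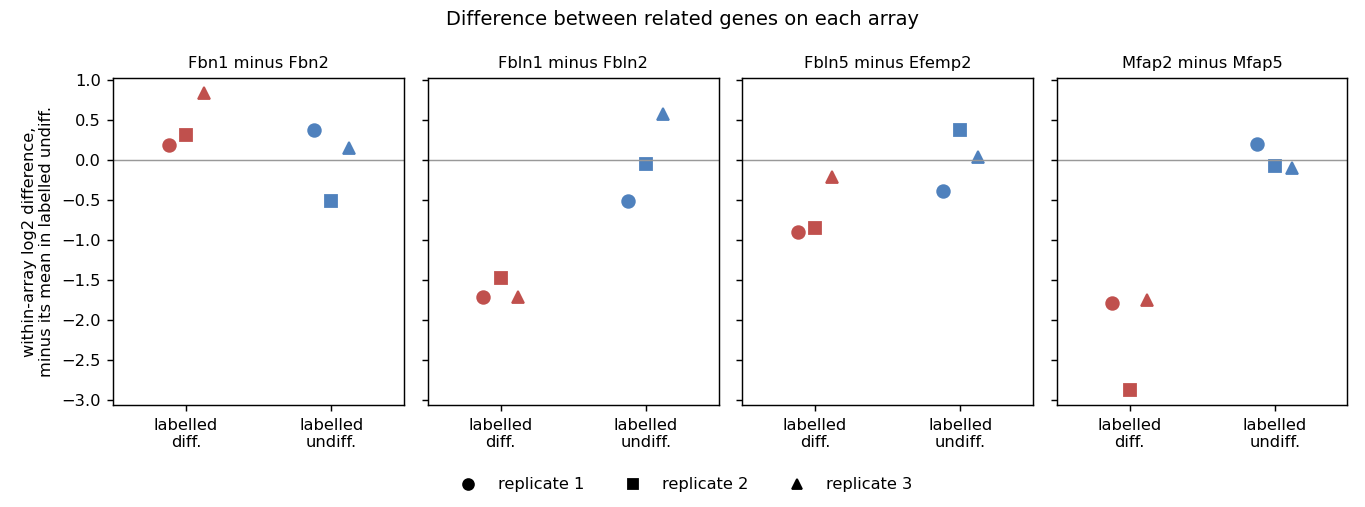
Within-array difference in log2 value between related genes on each array (vertical axis, log2 units, shifted so that the mean of the arrays labelled undifferentiated is 0), labelled differentiated on the left (red) and labelled undifferentiated on the right (blue). Mfap2 minus Mfap5 and Fbln1 minus Fbln2 lie lower in all 3 arrays labelled differentiated, with mean differences of -2.14 and -1.63, and the other pairs overlap.

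Proteins that associate with elastic fibres were divided. This list and those that follow were chosen with earlier results of these data known, so their counts and medians are descriptive only. Among 13 measured genes 6 rose, 3 fell and 4 gave no call, at a median change of 0.28, against 0.06 for all genes. Of all genes 14.7% rose and 14.9% fell. Loxl1, which cross-links elastin, rose by 1.91 ± 0.12 (SE; limma adjusted p = 6.5e-07). Its arrays read 8.74, 9.17 and 8.98 labelled differentiated, against 7.09, 6.94 and 7.14 labelled undifferentiated. Ltbp2, a latent TGF-beta binding protein found on microfibrils, rose by 1.65 ± 0.14, and Fkbp10, a chaperone of collagen and elastin precursors, by 1.41 ± 0.12 (limma adjusted p at most 6.46e-06).

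The other rises in that list were Lox, the lysyl oxidase, at 1.71, Adamtsl4, a fibrillin-binding protein, at 1.16 and Ltbp1, which holds latent TGF-beta in the matrix, at 0.70, all named after their values were seen. Emilin1, a glycoprotein at the border of elastin and microfibrils, fell by 0.61 ± 0.11 (SE; limma adjusted p = 0.00162). Efemp1, a fibulin close to Efemp2, fell by 0.43 (adjusted p = 0.0314) and Ltbp3 by 0.34 (adjusted p = 0.0429). Emilin3, Mfap4, Ltbp4 and Vtn, the vitronectin gene, differed by 0.06, 0.05, 0.28 and 0.10 and were also named after their values were seen. Of these, Emilin3 and Vtn were dim, under the array median on every array, so their lack of a call says little.

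The smallest of these changes were close to the threshold. Efemp1 did not pass without differentiated replicates 2 (adjusted p = 0.0947) or 3 (0.0721) or without undifferentiated replicates 1 (0.0669) or 3 (0.139), and its change then lay between -0.46 and -0.33. Ltbp3 did not pass without differentiated replicate 2 (adjusted p = 0.146) or undifferentiated replicates 1 (0.137) or 3 (0.12), with changes of -0.23, -0.30 and -0.33. Ltbp1 did not pass without differentiated replicates 1 (adjusted p = 0.134, change 0.59) or 3 (0.128, change 0.61) or without undifferentiated replicate 2 (0.125, change 0.42). With all 6 arrays kept, Ltbp3 and Ltbp1 were also lost with median centring (adjusted p = 0.0523 and 0.0573) and with eBayes without trend (0.0804 and 0.0625). The list's count of falls was then 1 without differentiated replicate 2, undifferentiated replicate 1 or undifferentiated replicate 3.

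Most measured receptors and assembly proteins of fibronectin were higher, as Fn1 was. Itgav, Itga8, Itga9 and Tns3 were listed but not measured, so the receptors are covered only in part. Because this list was chosen with earlier results known, its count is no independent evidence of a joint change. Of 19 measured genes, 15 rose, 0 fell and 4 did not pass, with a median change of 0.80; without moderation 9 rose and 0 fell. Itgb3, the integrin chain of the vitronectin and fibronectin receptor, read 9.46, 9.99 and 9.49 in the arrays labelled differentiated, against 7.68, 7.33 and 7.45 in those labelled undifferentiated. It rose by 2.16 ± 0.15 (SE), or 4.47-fold, at a limma adjusted p = 1.16e-06. The heparan sulfate proteoglycans Sdc4, a co-receptor of fibronectin, and Sdc2 rose by 1.21 ± 0.12 and 0.98 ± 0.10.

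Itga5 and Itgb1, the chains of the classical fibronectin receptor, rose by 1.47 and 0.81, and Itga4, of an integrin that binds a spliced segment of fibronectin, by 1.21; they were picked for naming once their values were known. The 4 that did not pass, named in the same way, were Itgb6 (-0.07), Itgb8 (-0.03), Sdc1 (0.20) and Ptk2 (0.02). Itgb6 was dim, under the array median on every array, so its lack of a call says little. Ptk2, the focal adhesion kinase, differed by -0.01 with median centring. Itgb8 differed by 0.23 without differentiated replicate 2 and by 0.13 without undifferentiated replicate 1.

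**Figure D4:**
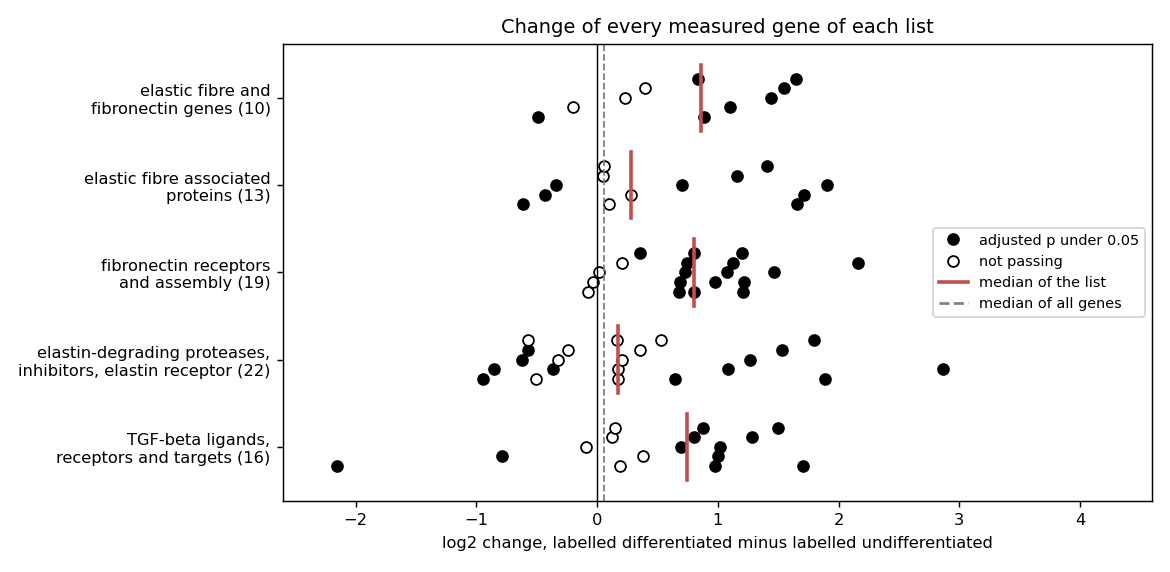
Log2 change (horizontal axis, log2 units, labelled differentiated minus labelled undifferentiated) of every measured gene of the 10 described here and of 4 pathway lists, 1 row a list with its number of genes, filled where the limma adjusted p was under 0.05, with the list median in red and the median of all genes dashed. The medians run from 0.17 for elastin-degrading proteases, their inhibitors and the elastin receptor to 0.86 for the 10 genes.

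Enzymes that degrade elastin, their inhibitors and the elastin receptor complex showed changes in both directions. Of 22 measured genes, 7 rose, 5 fell and 10 did not pass, with a median change of 0.17. The shares over all genes were 14.7% rising and 14.9% falling. The gelatinases Mmp9 and Mmp2, which cleave elastin and denatured collagen, rose by 2.87 ± 0.26 and 1.89 ± 0.11 (SE; limma adjusted p at most 1.02e-05), and Mmp14, which activates Mmp2, rose by 1.09 ± 0.11. Ctsk, a cathepsin with elastase activity, rose by 1.80, and the metalloproteinase inhibitors Timp1 and Timp2 by 1.53 and 1.27, all named after their values were seen.

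Cst3, the cathepsin inhibitor cystatin C, fell by 0.95 ± 0.15 (SE; limma adjusted p = 0.000661), and the cathepsin Ctsb by 0.62. Neu1, the sialidase of the elastin receptor complex, fell by 0.57 (adjusted p = 0.00118). Glb1, whose spliced product is that complex's elastin-binding subunit, and the elastase Mmp7 were named after their values were seen. Mmp7 fell by 0.85, and Glb1 by 0.36 (adjusted p = 0.0467), a call that was kept in 1 of the 6 fits that left out an array, that without differentiated replicate 2. Its change was -0.24 without differentiated replicate 3 (adjusted p = 0.176), and it did not pass with quantile normalization (0.0527) or eBayes without trend (0.0829). Mmp7 was dim, at 3.66, 3.43 and 4.14 in the arrays labelled differentiated, against 4.89, 4.37 and 4.53 in those labelled undifferentiated. All 6 values were under the array medians and that of differentiated replicate 2 was below the array's lower quartile of 3.52, so the size of its fall is uncertain.

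Fibrillins and fibronectin hold latent TGF-beta, which in many cells raises matrix genes. Of 16 measured TGF-beta ligands, receptors and targets, 9 rose, 2 fell and 5 did not pass, with a median change of 0.75. Ccn1 and Ccn2, secreted matricellular proteins, rose by 1.70 ± 0.13 and 1.02 ± 0.10 (SE; limma adjusted p at most 2.48e-05). The ligand Tgfb2 rose by 1.5 ± 0.13. Tgfb1, named after its value was seen, rose by 0.98. The co-receptor Tgfbr3 read 6.04, 6.64 and 6.23 in the arrays labelled differentiated, against 8.61, 8.47 and 8.31 in those labelled undifferentiated. Tgfbr3 fell by 2.16 ± 0.15 (SE), and the decoy receptor Bambi fell by 0.79 ± 0.13. The 5 that did not pass, named after their values were seen, were Tgfb3 (-0.09), Tgfbr1 (0.38), Smad2 (0.19), Smad4 (0.15) and Smad7 (0.12). Tgfb3 differed by 0.07 without differentiated replicate 1, and Tgfbr1 passed without undifferentiated replicate 1 (0.51, adjusted p = 0.0376).

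In a mixed culture, more cells of a type and more RNA per cell cannot be told apart, so markers of the cells that make matrix were read on the same arrays. Of 13 fibroblast markers, 12 rose, 0 fell and 1, Pi16 at -0.21, did not pass. Their median change was 1.13, against 0.06 for all genes, of which 14.7% rose and 14.9% fell. The mean log2 value of these 13 genes lay between 9.86 and 10.04 in the arrays labelled differentiated and between 8.73 and 9.06 in those labelled undifferentiated. Prrx1, a mesenchymal transcription factor, rose by 1.77 ± 0.11 (SE), the receptor Pdgfra by 1.46 ± 0.10 and Twist1, another mesenchymal transcription factor, by 1.41 ± 0.14 (limma adjusted p at most 2.04e-05). Fibroblast markers therefore moved with the 6 matrix genes that rose, and their part in those rises was not tested. Of that list, Dcn, Lum, Col1a1, Col1a2, Col3a1, Col5a1, Postn and Dpt, named here only for what they encode, are matrix genes themselves. Their rises partly repeat the matrix result and cannot tell more fibroblasts from more matrix RNA per cell. Pi16 was named after its value was seen.

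Markers of smooth muscle and pericytes, which also lay down elastic fibres in vessel walls, did not move as a group. Of 11 measured, 3 rose and 2 fell, with list means of 6.62 to 6.68 in the arrays labelled differentiated and 6.55 to 6.63 in those labelled undifferentiated. The contractile genes Tagln and Acta2 rose by 1.45 and 0.97 and the pericyte proteoglycan Cspg4 by 0.51. Rgs5 and Kcnj8, listed here as pericyte markers, fell by 2.28 and 0.88. Rgs5 averaged 12.42 in the arrays labelled undifferentiated, against 6.49 for Cspg4 and 6.94 for Kcnj8. Whether its signal came from pericytes was not tested. Of 10 endothelial markers 0 rose and 2 fell, the junction gene Cldn5 by 2.31 and Egfl7 by 0.50. The list means were 4.64 to 4.80 labelled differentiated against 4.92 to 5.01 labelled undifferentiated, all under the array medians of 5.05 to 5.13. Pecam1, Cdh5, Kdr and Emcn, named after their values were seen, were dim, under the median on every array. Their lack of a call therefore says little, and whether the Cldn5 signal came from endothelial cells was not tested. Of 10 macrophage markers 1 rose, Tyrobp by 1.24, and 1 fell, Cd163 by 1.00. Their list means were 6.42 to 7.18 labelled differentiated against 6.32 to 6.85 labelled undifferentiated. Cd163 was dim, at 3.82, 4.05 and 3.83 in the arrays labelled differentiated, all under the array medians. The size of its fall is therefore uncertain. Among all genes 14.7% rose and 14.9% fell, and the endothelial and macrophage counts were near those shares.

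Of 9 Schwann and sustentacular cell markers, 2 rose and 1 fell, beside 14.7% and 14.9% of all genes. S100b and Foxd3 rose by 0.74 and 0.35 and the myelin gene Mbp fell by 1.97, with list means of 6.54 to 7.11 labelled differentiated against 6.78 to 7.04 labelled undifferentiated. All 10 measured glomus cell markers fell, among them Ddc, Cox4i2 and Gch1 with changes of -3.25, -3.50 and -3.23, with list means of 7.58 to 8.04 labelled differentiated against 10.65 to 10.84 labelled undifferentiated. The part of these cell types in the matrix changes was not tested. With an array left out, the adjusted p reached 0.147 for S100b (undifferentiated replicate 2, change 0.58), 0.115 for Foxd3 (differentiated replicate 3), 0.0852 for Cd163 (undifferentiated replicate 2, change -0.63), 0.0833 for Cspg4 (differentiated replicate 1), 0.0774 for Kcnj8 and 0.0752 for Egfl7 (both undifferentiated replicate 3). Without differentiated replicate 1 the change of S100b was 0.45 (adjusted p = 0.116), and without differentiated replicate 2 that of Kcnj8 was -0.56. With median centring S100b and Foxd3 did not pass (adjusted p = 0.0514 and 0.0657), nor did S100b with eBayes without trend (0.0606). With no measure of background no marker can be said to be at 0.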

How the data were processed

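Per the labels' protocols, 100 ng of total RNA from each of 6 neurosphere samples was turned into biotinylated cRNA for Affymetrix arrays. The table the authors deposited holds log2 values for 29214 probe sets. The log base was taken from the range of values. Background correction and normalization are not stated in the sources used. The depth of an array cannot be counted, so the number of arrays limits the precision. Gene names came from the platform annotation, 15310 with a single symbol and 323 with several, while 13581 were not listed there. A gene with several probe sets was represented by the brightest on average. Groups and replicate numbers came from the sample titles.

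The test was limma's (version 3.58.1, R 4.3.3), with lmFit on all 6 arrays and eBayes with its trend option, for labelled differentiated minus labelled undifferentiated, two-sided, with Benjamini-Hochberg adjustment over 14506 genes at 0.05. The fit was tested on simulated data. Related genes were compared by an exact permutation test over arrays. The genes named are the 10 members and, from each list, up to 3 genes of smallest p that passed in each direction, with Th, Gfap and Tubb3 as label checks; others are marked in the text. The members and lists were chosen with earlier results of these data known. Alternatives were leaving out each array, a block for the replicate number, median centring, quantile normalization, a filter on dim genes (at or below the 40th percentile), other ways to combine probe sets, eBayes without trend, no moderation and array weights. Promoter windows are RefSeq's (GRCr8), searched with Python 3.11.15; plots used matplotlib 3.10.9.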

Additional observations from a re-analysis of the deposited data

How the results depend on the processing

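The rises of Fbn1, Fbln2, Efemp2 and Mfap5 passed in all 15 alternatives, and those of Fbn2 and Fn1 in 14, all but the test without moderation. The count of the 10 genes that rose was 4 without moderation, 7 with array weights and 6 to 7 with an array left out. The count that fell was 0 without moderation and with eBayes without trend (Mfap2 adjusted p = 0.0675), and 0 to 1 with an array left out. Without moderation 1193 of all genes rose, against 2128 in the fit as reported, and the falls were 1 among elastic fibre associated proteins and 3 among elastin-degrading proteases, their inhibitors and receptor, while 9 fibronectin receptor and assembly genes rose. Ctsk (adjusted p = 0.0828), Cst3 (0.0525), Itga4 (0.0612), Tgfb1 (0.071), Mmp7 (0.106) and Tyrobp (0.157) also did not pass without moderation. Nor did the named genes whose calls were lost with an array left out. With each array left out, the falls among elastic fibre associated proteins numbered 1 to 3. The sign turned for Tubb3 with quantile normalization (0.0392) and for Ptk2 with median centring (-0.0132). When each array was left out, the change ran from -0.45 to 0.15 for Fbln1, -0.071 to 0.12 for Tubb3, -0.049 to 0.193 for Emilin3, -0.24 to 0.23 for Itgb8, -0.11 to 0.16 for Mfap4, -0.0432 to 0.0778 for Ptk2 and -0.264 to 0.0676 for Tgfb3. The cause was not tested. The Mfap2 minus Mfap5 difference ran from -2.33 to -1.77 and Fbln1 minus Fbln2 from -1.89 to -1.35.

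Arrays of the same replicate number had deviations from their group means that correlated at 0.115, 0.124 and -0.00376, and 4 of the 6 arrays correlated best with their own number. The labels do not say that the numbers pair the arrays, and not every pair correlated, so the numbers were not used as pairs. With the replicate number as a block 2238 genes rose and 2192 fell, 7 and 1 of the 10 described here, the added rise being Eln (adjusted p = 0.0324).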
